A study of Mus musculus with 4 samples.

Results

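The genes described here encode chemosensory receptors outside the olfactory receptor family: the vomeronasal receptors (V1r and V2r, now named Vmn1r and Vmn2r), the taste receptors (Tas1r and Tas2r) and the trace amine-associated receptors (Taar). They were chosen by the gene name that the array files give to each probe. The rule took 171 of 18354 gene names, namely 116 V1r, 4 V2r, 3 Tas1r, 33 Tas2r and 15 Taar names, with 3325 probes in all. Of these, 157 had enough neighbouring probes to be measured (103 V1r, 3 V2r, 3 Tas1r, 33 Tas2r and 15 Taar names). The other 14, which are 13 V1r names and V2r1b, had too few probes or probes too far apart and have no value here. In RefSeq, 52 names are a current symbol, 110 are an older synonym, 3 are a pair of genes, 5 point to several genes and 1 has no match. V2r10 and V2r11 both lead to Vmn2r89 and are therefore not separate genes.

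All of these families code for G protein-coupled receptors that sensory cells use to detect chemicals. V1r and V2r proteins are the pheromone receptors of vomeronasal neurons, and each neuron usually uses a single receptor gene or very few. Tas1r subunits pair up to form the umami and sweet receptors of taste cells, Tas2r proteins detect bitter compounds, and most Taar proteins detect volatile amines in the main olfactory epithelium. Most V1r, Tas2r and Taar genes lie in clusters of related copies, and fibroblasts are not known to use them as sensory receptors. Polycomb repressive complex 1 (PRC1), whose ubiquitin ligase subunit is Ring1B, is known for binding the CG-rich promoters of developmental regulators. The subunit Phc2 polymerises through its SAM domain, and the title of the study links such polymers to the clustering of PRC1 and to silencing.

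Ring1B was mapped by chromatin immunoprecipitation on promoter arrays in mouse embryonic fibroblasts (MEFs), which are primary cells grown from embryos. Both groups had the C57BL/6 background, came from embryonic day 12.5 and were used at passage 2. The first group was wild type and the other was homozygous for Phc2 L307R, an amino acid change in Phc2. On each array the Ring1B immunoprecipitate was labelled with Cy5 and the input DNA of the same genotype with Cy3, after T7 amplification and with no dye swap. The labels do not say how many embryos or cultures each array stands for.

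The 4 arrays split into 2 designs with 0 probes in common, and each design was hybridised once per genotype, so every promoter has 1 array for each genotype. The spread between cultures is unknown and no test was made: a stated SD is the spread over 3 neighbouring probes of the same array. The arrays of the 2 genotypes were scanned on different days, and scan day and genotype cannot be told apart. Each array held 237195 (design 1) or 237185 (design 2) probes. Between 97.9% and 99.7% of them were well above background in the immunoprecipitate channel. In the input channel the share was 85.7% and 86.7% on the wild-type arrays and 75% and 76.3% on the Phc2 L307R arrays. Fewer input probes thus stood above background on the Phc2 L307R arrays, and the part of this in the differences below was not tested. Receptor copies can be nearly identical in sequence, and hybridisation of a probe to a related copy was not tested.

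The promoters of 4 receptor genes on which the results turn are shown here, each from 250 bases before to 50 bases after the transcription start in RefSeq (GRCm38.p6), 5′ to 3′ on the gene's strand. Capitals mark CG dinucleotides, the feature that Polycomb-bound promoters are usually rich in. The genome build of the array coordinates was not given, so where the measured probes lie relative to the printed bases was not worked out. Taar3 (chr10:23949308-23949607, plus strand) was bound in wild type, V1rc13, now Vmn1r38 (chr6:66777081-66777380, minus strand), was the highest receptor promoter in Phc2 L307R, Tas2r129 (chr6:132950852-132951151, plus strand) was the highest taste receptor promoter there, and Tas1r3 (chr4:155863304-155863603, minus strand) belongs to the only family in which every measured member (3 of 3) had a lower mean over all probes in Phc2 L307R. Over all promoters, only 38.9% had a higher mean there.
Taar3: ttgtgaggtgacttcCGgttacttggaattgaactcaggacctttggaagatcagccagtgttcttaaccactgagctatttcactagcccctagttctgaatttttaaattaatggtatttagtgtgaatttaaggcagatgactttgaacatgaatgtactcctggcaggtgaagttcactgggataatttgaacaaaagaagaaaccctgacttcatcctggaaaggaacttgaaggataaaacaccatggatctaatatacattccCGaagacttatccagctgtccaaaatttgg
V1rc13: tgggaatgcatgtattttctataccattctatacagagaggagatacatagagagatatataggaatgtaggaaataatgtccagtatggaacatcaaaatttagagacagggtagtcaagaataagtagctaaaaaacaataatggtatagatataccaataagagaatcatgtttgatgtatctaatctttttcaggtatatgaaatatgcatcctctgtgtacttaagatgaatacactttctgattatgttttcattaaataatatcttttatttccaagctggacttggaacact
Tas2r129: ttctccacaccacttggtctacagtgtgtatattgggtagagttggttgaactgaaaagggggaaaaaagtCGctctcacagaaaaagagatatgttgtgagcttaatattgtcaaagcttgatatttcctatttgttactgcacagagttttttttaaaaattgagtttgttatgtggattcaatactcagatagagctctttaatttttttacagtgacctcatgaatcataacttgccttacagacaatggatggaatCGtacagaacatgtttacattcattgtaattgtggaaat
Tas1r3: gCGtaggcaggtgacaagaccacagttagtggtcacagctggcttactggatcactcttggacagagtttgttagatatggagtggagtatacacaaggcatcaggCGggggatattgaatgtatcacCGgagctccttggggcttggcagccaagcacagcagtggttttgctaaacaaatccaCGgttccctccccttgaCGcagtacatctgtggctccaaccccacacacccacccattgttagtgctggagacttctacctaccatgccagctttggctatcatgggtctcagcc
The V1rc13 promoter holds 0 CG dinucleotides in these 300 bases, Taar3 and Tas2r129 hold 2 each, and Tas1r3 holds 5. Over the 131 receptor genes with a sequence in the table (83.4% of 157) the median was 1 CG dinucleotide, and 129 of them had at most 5. The olfactory receptor genes, the related family used for comparison, also had a median of 1 (703 of 869 genes, 80.9%). Across the 131 receptor genes, the number of CG dinucleotides had a Spearman correlation of 0.04 with the wild-type window and -0.16 with the window difference. For the percentage of G and C these were -0.01 and -0.31 over the same 131 genes. Within families they were -0.17 and -0.22 over 86 V1r genes and 0.40 and -0.40 over 29 Tas2r genes. The genes share the arrays and have similar sequences, so these are descriptions. For all promoters only 72.7% of names had a sequence, which is too few, so a comparison of composition with them is void.

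The level of a promoter is given as the log2 ratio of immunoprecipitate over input, set to 0 at the array median, as the mean of the 3 successive probes within 2000 bp where it was highest over both genotypes. Such a window is picked for its height and is therefore raised by noise where there is little Ring1B, so the mean of every probe of the promoter, called the mean over all probes, is given beside it. Ring1B was low at nearly all receptor promoters in both genotypes. The median window of the 157 receptor promoters was 0.13 in wild type (range -0.42 to 1.43) and 0.46 in Phc2 L307R (range -0.60 to 1.42). Over all 17649 promoters the medians were 0.90 and 0.80. By the mean over all probes, the receptor promoters had a wild-type median of -0.15 and a Phc2 L307R median of 0.07, against 0.08 and 0.06 over all promoters. A promoter was counted as bound at a window of at least 1. In wild type 2 of 157 receptor promoters were bound, Taar4 and Taar3, where 45.5% of all promoters were. In Phc2 L307R 6 were bound, where 39.3% of all promoters were: V1rc13, V1rc19, Tas2r129, V1rg4, V1re8 and V1rg1. No receptor promoter was bound in both genotypes (0 of 157). The share of all promoters bound in both was not counted. With only 2 and 6 bound, and none at 1.5, no switch between the genotypes is read from this. With the sign turned, the lowest window lay at or below -1 at 1 receptor promoter in wild type and at 3 in Phc2 L307R, all of them Tas1r genes (3.07% and 9.23% of all promoters). With a bound cut-off of 1.5, 0 receptor promoters were bound in either genotype, where 22% and 18.6% of all promoters were.

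**Figure D1:**
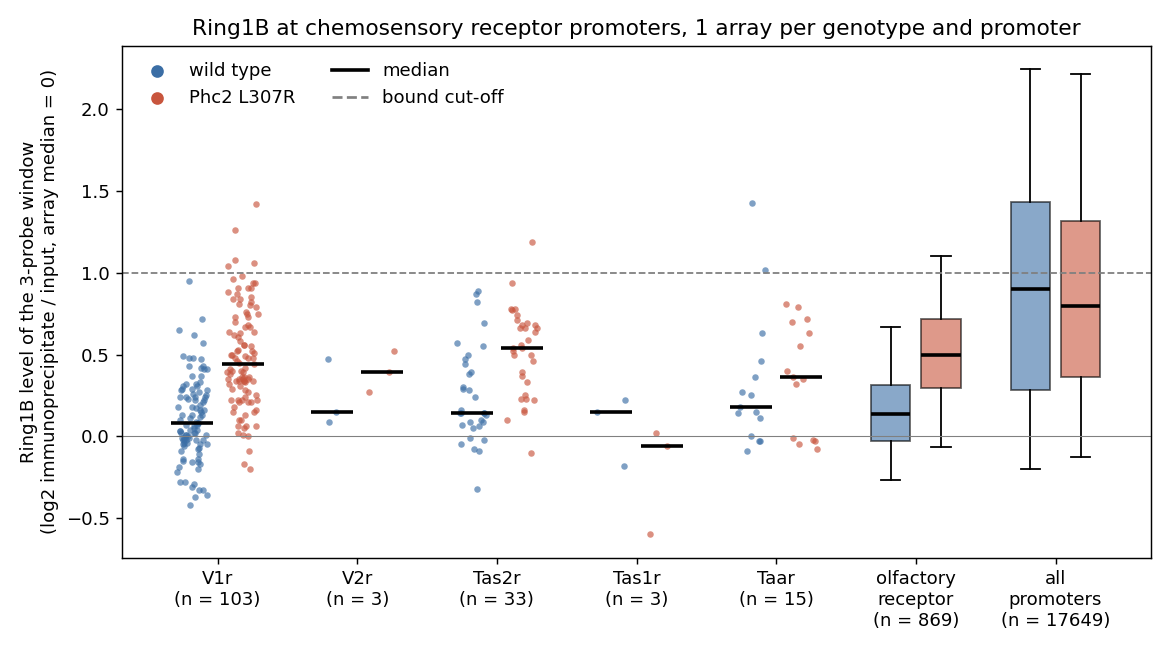
Ring1B level of the highest 3-probe window (log2 immunoprecipitate over input, array median at 0) for each promoter of the 5 receptor families in wild type (blue) and Phc2 L307R (red), with black bars at the medians. Boxes for the 869 olfactory receptor promoters and all 17649 promoters span the quartiles, with whiskers at the 5 and 95 percentiles; the receptor promoters lie mostly below the dashed bound cut-off of 1, and V1r and Tas2r stand higher in Phc2 L307R (medians 0.44 and 0.54) than in wild type (0.08 and 0.14), which for Tas2r turns with windows chosen in wild type alone (0.23 and 0.28).

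In the scanner values the trace amine-associated receptors held the 2 receptor promoters bound in wild type, which lie next to each other in the cluster on chromosome 10. In the deposited value tables, which hold another version of the wild-type values, the window was chosen anew and neither was bound. The 2 receptor promoters at or above 1 in wild type there were V1re8 (1.53) and V1rf1 (1.03, chosen after its values were seen). The windows of Taar4, Taar3 and V1re8 were then others than in the scanner values, so these calls do not compare the same probes. At Taar4, a receptor for volatile amines, the window (positions 23648526 to 23648892 in the coordinates of the files, whose build was not given in the sources used here) stood at 1.43 (SD 0.38) in wild type and 0.70 (SD 0.28) in Phc2 L307R. Its difference, Phc2 L307R minus wild type, was -0.74 (SD 0.19 over the 3 probes). In wild type 6 of its 31 probes reached 1, and 5 of these lay side by side. In Phc2 L307R 0 of the 31 probes did, and 8 of 31 were higher than in wild type. Taar4 was thus the receptor promoter with the most probes above the cut-off in wild type.

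At Taar3, whose promoter is printed above, the window (23635829 to 23636221) stood at 1.02 (SD 0.25) in wild type and 0.36 (SD 0.45) in Phc2 L307R, a difference of -0.66 (SD 0.25). Only 4 of its 35 probes were higher in Phc2 L307R. By the mean over all probes it went from 0.36 to -0.06, a difference of -0.42, the lowest of all 157 receptor promoters. The next genes on either side of the pair were not bound: Taar2 stood at -0.03 in wild type and 0.35 in Phc2 L307R, and Taar5 at -0.09 and -0.08. In the value tables, where the window was chosen anew, Taar4 had 0.98 in wild type (difference -0.13) and Taar3 0.53 (difference 0.10). These were other windows, with Phc2 L307R at 0.85 and 0.63. At the 3 probes of the windows given above, the wild-type values of the tables were 1.181, 0.693 and 1.384 at Taar4. At Taar3 they were 0.367, 0.61 and 0.586, against 0.278, -0.047 and 0.836 in Phc2 L307R. The bound calls and differences of both genes, and the direction at Taar3, therefore depend on the wild-type values together with the window chosen from them. At the window given above, the change of direction at Taar3 was not seen at most of its probes.

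The other Taar promoters were below 1 in both genotypes. Taar6 had the largest positive window difference of the family, from 0.00 to 0.81 (difference 0.81, SD 0.61). Taar1, which unlike the rest of the family is known from the brain, stood at 0.18 and 0.63, and Taar7f at 0.63 and 0.79. Taar7a-Taar7b, a probe set for a pair of genes, had 0.46 and 0.72, Taar7e 0.27 and 0.40, and Taar8b 0.15 and 0.55. Low levels in both genotypes were found at Taar7b (-0.03 and -0.02), Taar7d (0.14 and -0.01), Taar8c (0.11 and -0.05) and Taar8a (0.25 and 0.32). Taar9 was lower in Phc2 L307R, at 0.36 and -0.03 (difference -0.39, SD 0.57). Of the 15 promoters, 8 had a higher mean over all probes in Phc2 L307R, and the median difference of that mean was 0.02. The median window difference of the family, 0.07, turned to -0.15 when the window was chosen in wild type alone.

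**Figure D2:**
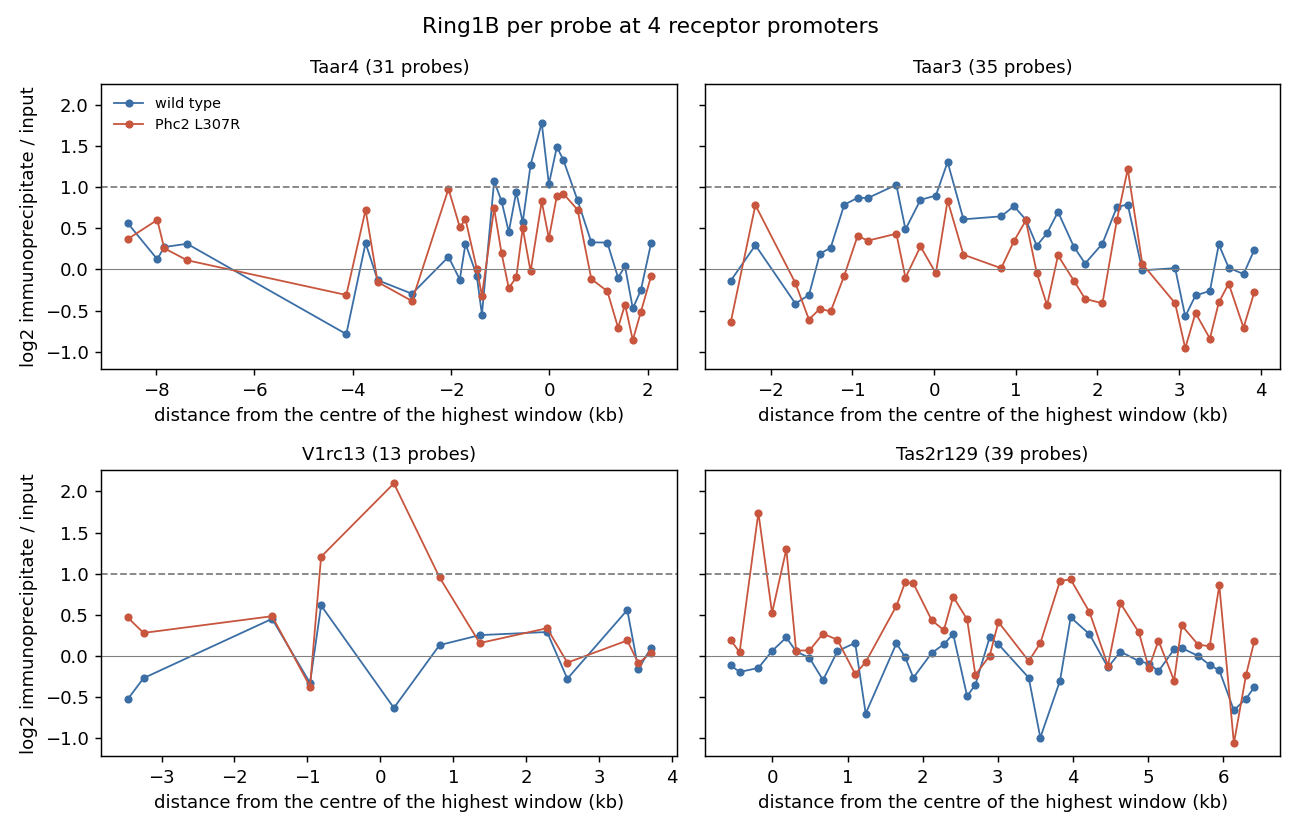
Log2 immunoprecipitate over input of each probe against its distance in kb from the centre of the highest window, at Taar4, Taar3, V1rc13 and Tas2r129, in wild type (blue) and Phc2 L307R (red), with the bound cut-off of 1 dashed. At Taar4 and Taar3 the wild-type line lies above the Phc2 L307R line across the window and over several probes around it; at V1rc13 and Tas2r129 single probes of Phc2 L307R stand out, at 2.10 and 1.74.

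The 3 Tas1r genes differed from most V1r and Tas2r genes in the direction of the mean over all probes. Over all promoters only 38.9% had a higher mean in Phc2 L307R, with a median difference of -0.05. Tas1r1 codes for the subunit particular to the umami receptor, Tas1r2 for that particular to the sweet receptor and Tas1r3 for the subunit they share. By the mean over all probes they were among the lowest receptor promoters and lower still in Phc2 L307R: Tas1r1 had -0.38 and -0.54, Tas1r2 -0.51 and -0.78, and Tas1r3 -0.52 and -0.72. At Tas1r2 only 3 of 22 probes were higher in Phc2 L307R, at Tas1r3 5 of 18, and at Tas1r1 18 of 35. Their windows showed no common direction. Tas1r1 had 0.22 and -0.06 (difference -0.29, SD 0.46), Tas1r2 -0.18 and 0.02 (difference 0.20, SD 0.43), and Tas1r3 0.15 and -0.60 (difference -0.75, SD 1.10). The SD over the 3 probes was larger than the difference itself at all 3 genes.

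The V1r genes, the largest family, had the lowest median window of the 5 families in wild type, 0.08 (range -0.42 to 0.95), and 0.44 in Phc2 L307R (range -0.20 to 1.42). By the mean over all probes, the lowest wild-type median was that of Tas1r, -0.51, against -0.18 for V1r. The median number of probes per promoter was 18 for V1r, 26 for Tas2r, 22 for Tas1r, 21 for Taar and 5 for V2r. Its part in the order of the windows was not tested. In wild type 0 of 103 were bound. The highest in wild type was V1rc28 (now Vmn1r21) at 0.95, followed by V1ra6 (Vmn1r42) at 0.72 and V1rh10 (Vmn1r210) at 0.65, and the lowest was V1ra9 (Vmn1r54) at -0.42. In Phc2 L307R these promoters stood at 0.22, 0.34, 0.91 and 0.10. Over the 103 V1r promoters, which share the arrays and the choice of the window, the windows of both genotypes had a Pearson correlation of 0.14 and a Spearman correlation of 0.10. For the mean over all probes these were 0.52 and 0.48, and between the scanner and value-table versions of wild type they were 0.65 and 0.67.

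By subfamily, named by the letter after V1r and made up of related copies, the wild-type median windows of the groups of at least 5 genes ran from -0.02 for the 9 V1rd genes on chromosome 7 to 0.41 for the 5 V1re genes on the same chromosome. In Phc2 L307R the 10 V1rg genes on chromosome 7 had the highest median, 0.78 (0.26 in wild type), followed by the 8 V1re genes on chromosome 17 with 0.69 (0.15 in wild type) and the 5 V1rf genes of chromosome 17 with 0.67 (0.12 in wild type). The 6 V1ra and 8 V1rb genes on chromosome 6 had 0.27 and 0.28, from 0.03 and 0.12 in wild type. For the V1re genes the median difference was 0.63 on chromosome 17 and 0.08 on chromosome 7. The V1re genes of these chromosomes lie on different array designs, so location and array cannot be told apart. By the mean over all probes these V1re groups were closer, with medians of 0.31 and 0.21, and all 13 genes were higher in Phc2 L307R. The 22 V1rc genes on chromosome 6 had 0.03 and 0.48 and the widest range of window differences, from -0.73 at V1rc28 to 1.38 at V1rc13.

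A promoter was called higher or lower in Phc2 L307R if its window differed by at least 1 (a 2-fold ratio) with all 3 probes on the same side. By this rule 7 of 157 receptor promoters were higher and 0 lower, against 1.1% and 1.63% of all promoters. V1rc13 (chromosome 6, 66707471 to 66709154) had the largest difference, from 0.04 (SD 0.63) to 1.42 (SD 0.60), or 1.38 (SD 1.17). Its middle window probe went from -0.63 to 2.10, whereas the probes on its sides went from 0.61 to 1.21 and from 0.13 to 0.96, and 9 of its 13 probes were higher. The difference at V1rc13 thus rests mostly on a single probe.

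V1rf2 (Vmn1r235, chromosome 17) went from -0.15 to 0.96 (difference 1.11, SD 0.56), with 32 of 36 probes higher. V1rc2 (Vmn1r29) went from -0.04 to 0.98 (difference 1.02, SD 0.64) and had all 8 of its 8 probes higher. V1rc19 (Vmn1r5) went from 0.24 to 1.26 (difference 1.02, SD 0.37, the smallest spread among the 7), with 15 of 18 probes higher. V1ri6 (Vmn1r195) went from -0.29 to 0.76 (difference 1.06, SD 0.84), with 20 of 32 probes higher. The other 2 promoters called higher, Tas2r129 and Tas2r113, are described with the bitter receptors. Of the 7 promoters, 3 were also bound in Phc2 L307R: V1rc13, V1rc19 and Tas2r129.

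Just below the rule, V1rg1 (Vmn1r72) went from 0.06 to 1.04 (difference 0.98, SD 1.20). V1rg4 (Vmn1r76) went from 0.29 to 1.08 (0.79, SD 0.41) and V1re8 (Vmn1r230) from 0.62 to 1.06 (0.44, SD 0.68), so that both were bound in Phc2 L307R without a 2-fold difference. At V1re8 the value tables, with a window chosen anew, gave 1.53 in wild type and 0.78 in Phc2 L307R, a difference of -0.75. The lowest difference among the V1r genes was that of V1rc28, -0.73 (SD 0.76), where 6 of 28 probes were higher in Phc2 L307R. The calls of single promoters depended on the settings: the count of 7 was 0 with normexp background correction, with only probes well above background, with windows of 5 probes and with the mean over all probes. The share of all promoters called higher was then also smaller, at 0.068%, 0.195%, 0.326% and 0.0113%. At a size rule of 1.5-fold, 35 receptor promoters were higher and 3 lower, against 6.33% and 8.44% of all promoters. Each of the 7 kept its call in 3 to 5 of the 8 to 10 settings in which it could be measured. Among these settings, 1 counted each distinct window once, removed no promoter and so kept every call by construction. V1rc13 and V1ri6 changed sign in 1 and 3 of the settings. In the value tables the rule was met by 2 promoters, V1rc13 (difference 1.25) and Taar6 (1.04), against 0.442% of all promoters.

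The Tas2r genes, for bitter receptors, had a median window of 0.14 in wild type (range -0.32 to 0.89) and 0.54 in Phc2 L307R (range -0.10 to 1.19), and 0 of 33 were bound in wild type. The median window difference of 0.31 turned to -0.05 when the window was chosen in wild type alone (0.28 and 0.23). Tas2r129 (chromosome 6, 132911688 to 132912118), printed above, went from 0.05 (SD 0.19) to 1.19 (SD 0.62), a difference of 1.14 (SD 0.71). Of its 39 probes 34 were higher in Phc2 L307R, and 2 reached 1. Tas2r113, the lowest of the family in wild type, went from -0.32 to 0.71 (difference 1.03, SD 0.94), with 17 of 21 probes higher. The value tables gave Tas2r113 a wild-type level of 0.62 and a difference of 0.10.

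The highest Tas2r promoters in wild type were Tas2r143 at 0.89, Tas2r137 at 0.87 and Tas2r116 at 0.82. They stood at 0.94, 0.68 and 0.77 in Phc2 L307R and so differed little, although the SD of the difference at Tas2r116 was 1.80. Tas2r135 had the lowest difference of the family, from 0.55 to -0.10 (-0.65, SD 0.74). The 2 groups of Tas2r genes on chromosome 6 were compared after their values had been seen. The 22 genes from position 100000000 on had a median wild-type window of 0.13 and a Phc2 L307R window of 0.62, and 21 of 22 had a higher mean over all probes in Phc2 L307R (median difference 0.22). The 9 genes below that position had 0.38 and 0.37, and 6 of 9 were higher (median difference 0.14). The remaining Tas2r134 and Tas2r119 lie alone on chromosomes 2 and 15. Tas2r134 had a difference in the mean over all probes of -0.23, the lowest of the family.

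The V2r names with a value were V2r16 (Vmn2r10, chromosome 5), at 0.47 in wild type and 0.52 in Phc2 L307R, and V2r10 and V2r11 (chromosome 14), at 0.15 and 0.39 and at 0.09 and 0.27. They rest on 4 to 6 probes each. All 4 probes of V2r10 and all 6 of V2r11 were higher in Phc2 L307R, against 2 of 5 at V2r16.

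Across whole promoters, Ring1B signal at V1r and Tas2r genes was slightly higher in Phc2 L307R, over a broad set of genes and not at a few. The mean over all probes was higher at 101 of 103 V1r promoters (98.1%), with a median difference of 0.27 (range -0.20 to 0.70), and at 27 of 33 Tas2r promoters (81.8%), with a median of 0.21 (range -0.23 to 0.41). Over all 5 families it was 139 of 157 (88.5%) and 0.22. Among all promoters 38.9% were higher, with a median of -0.05, and among the 7697 other promoters below 1 in both genotypes 40.8% were, with a median of -0.03. The olfactory receptor genes were also higher, with 796 of 869 higher (91.6%) and a median of 0.23, so the difference is not particular to vomeronasal and taste receptors.

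The V1r difference was present on both array designs, with 63 of 64 promoters higher on design 1 (median 0.29) and 38 of 39 on design 2 (median 0.24). The designs carry different genes, so they are no replicates, and on both designs the genotypes were scanned on different days. By chromosome, 35 of 36 V1r promoters were higher on chromosome 6 (median 0.29), 28 of 28 on chromosome 7 (0.29), 25 of 26 on chromosome 13 (0.19) and 13 of 13 on chromosome 17 (0.30). The V1r promoters of chromosomes 6 and 7 are those of design 1, and those of chromosomes 13 and 17 are those of design 2. Chromosomes of different designs can therefore not be told apart from their arrays. Other promoters below 1 in both genotypes and outside the receptor families had medians of -0.01, -0.04, 0.01 and -0.05 on the same chromosomes, so the V1r differences stood above those of low promoters on their own chromosomes. Among subfamilies with at least 5 promoters the medians ran from 0.18 for the 17 V1rh genes to 0.36 for the 9 V1rd genes. The promoters furthest up by this measure were V1rc18 (-0.35 to 0.36, all 9 of 9 probes higher), V1rc2 (-0.15 to 0.52), V1rc1 (-0.16 to 0.48) and V1rg8 (-0.55 to 0.07), each with 6 to 9 probes; V1rc18, V1rc1 and V1rg8 were named after their values had been seen.

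**Figure D3:**
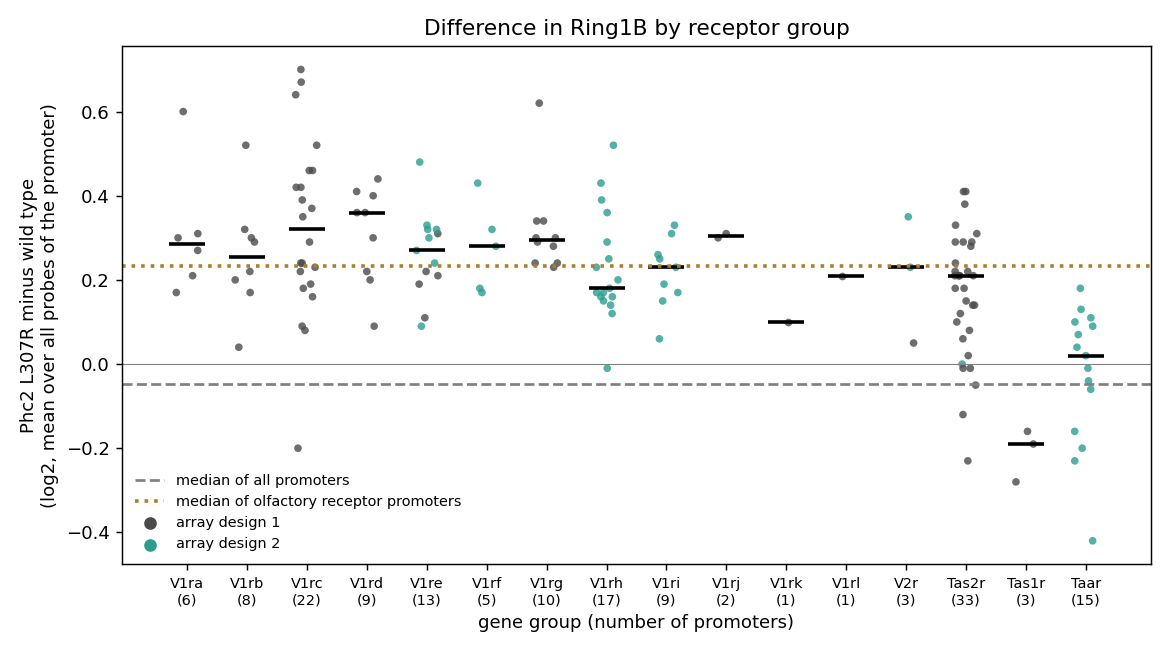
Difference in Ring1B between Phc2 L307R and wild type (log2, mean over all probes of a promoter) for each receptor promoter, by V1r subfamily and by family, coloured by array design, with black bars at the medians. Most V1r and Tas2r points lie above 0 and near the olfactory receptor median of 0.23 (dotted), the Taar points lie around 0 and the 3 Tas1r points lie below the median of all promoters, -0.05 (dashed).

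**Figure D4:**
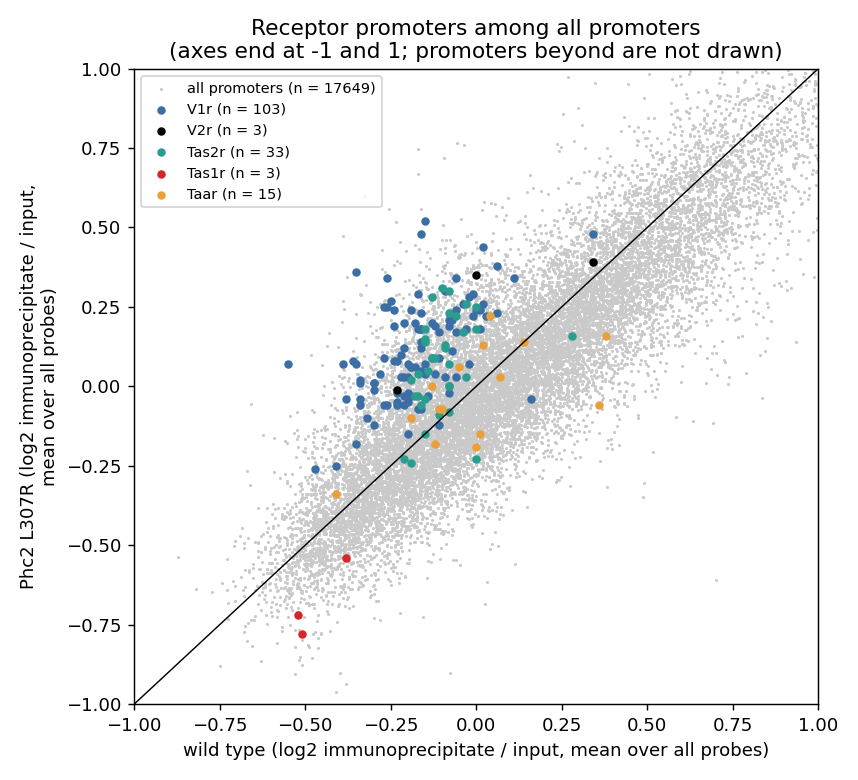
Mean log2 immunoprecipitate over input over all probes of each promoter in wild type (horizontal axis) and Phc2 L307R (vertical axis), with receptor promoters coloured by family over all 17649 promoters in grey and a line of equality. V1r and Tas2r promoters gather at low levels above the line, whereas the Tas1r promoters and the Taar promoters with the highest wild-type levels lie below it; promoters beyond the axes are not drawn.

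The 2 channels behind the ratio were set against the median of their own array. At the 2044 V1r probes the median immunoprecipitate signal was -0.23 in wild type and 0.14 in Phc2 L307R, and the input was 0.09 and 0.12. The difference in the ratio at V1r probes thus lay in the immunoprecipitate channel. At the 828 Tas2r probes the immunoprecipitate had -0.03 and 0.11 and the input 0.17 and 0.15. At the 359 Taar probes the values were 0.19 and 0.15 for the immunoprecipitate and 0.35 and 0.37 for the input, and at the 75 Tas1r probes -0.28 and -0.40, and 0.35 and 0.39. Olfactory receptor probes were like V1r probes, with -0.18 and 0.09 for the immunoprecipitate and 0.08 and 0.09 for the input. The share of V1r probes well above background in the input was 89.8% in wild type and 80% in Phc2 L307R, and over all probes it was 86.2% and 75.6%. Single probes higher in Phc2 L307R made up 73% at V1r, 65.3% at Tas2r, 46.5% at Taar and 34.7% at Tas1r genes, against 44.9% of all probes.

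**Figure D5:**
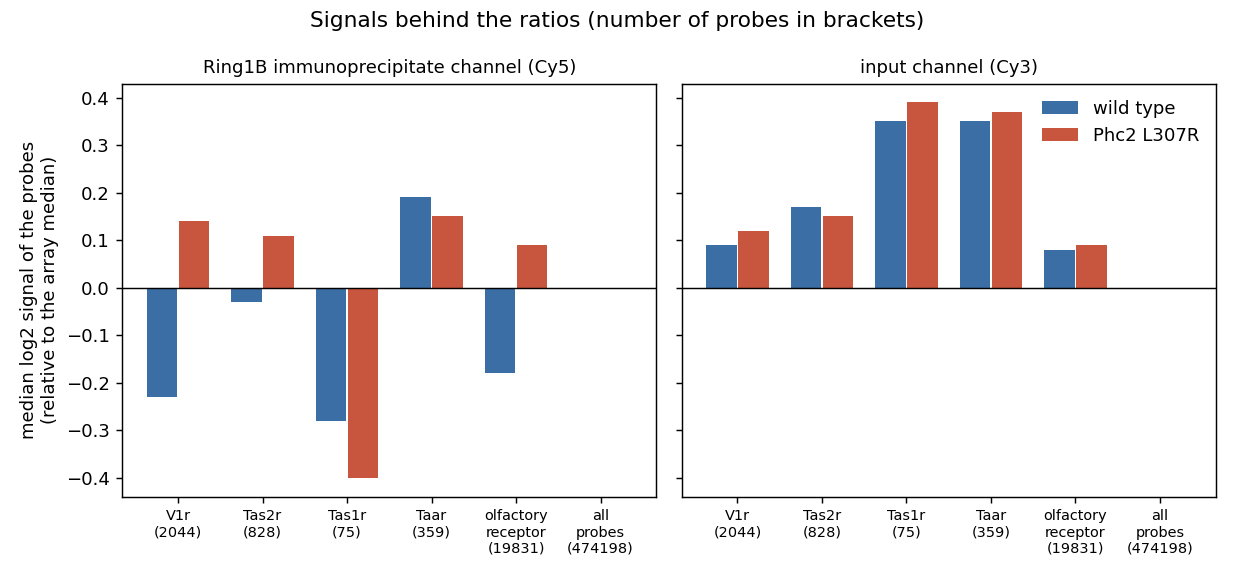
Median log2 signal of the probes of each group, relative to the array median, in the immunoprecipitate (left) and input (right) channels of the wild-type (blue) and Phc2 L307R (red) arrays. For V1r and olfactory receptor probes the immunoprecipitate bar goes from below 0 in wild type (-0.23 and -0.18) to above 0 in Phc2 L307R (0.14 and 0.09), while the input bars of the genotypes are nearly equal.

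The deposited value tables give a second set of wild-type values, whose Pearson correlation with the scanner ratios of the wild-type arrays was 0.854 on design 1 and 0.890 on design 2, whereas the Phc2 L307R values matched the scanner ratios (0.999 on both). With these tables, 95 of 103 V1r promoters were higher in Phc2 L307R by the mean over all probes (median difference 0.18), 29 of 33 Tas2r (0.13), 11 of 15 Taar (0.09) and 0 of 3 Tas1r promoters (-0.11), against 43.5% of all promoters (-0.03). Over the 5 families, 130 of 157 promoters were higher against both sets of wild-type values (82.8%), as were 737 of 869 olfactory receptor promoters (84.8%) and 28.8% of all promoters. The Phc2 L307R arrays are the same in both, so this is no independent repeat. The wild-type sets themselves differed: V1r promoters had a median 0.08 higher in the tables than in the scanner files, and 84 of 103 lay higher, against a median of -0.01 and 46.9% over all promoters. Olfactory receptor promoters were also higher in the tables, by a median of 0.10, at 639 of 869.

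Genes that work with these receptors were read from lists chosen with earlier results of these data known. Of 15 vomeronasal signalling genes, 12 had a value, with a wild-type median of 0.36 and 0.32 in Phc2 L307R. Of these, 0 were called higher or lower, against 1.1% and 1.63% of all promoters. The G protein subunits Gnai2 (1.70 and 1.58), which couples to V1r receptors, and Gng2 (1.53 and 1.26) were the highest members of this list in wild type. Of 10 taste signalling genes with a value, 1 was called lower, against 1.63% of all promoters. This gene, Car4, a carbonic anhydrase of sour-sensing cells, went from 2.50 to 0.84 (difference -1.66). Itpr3, the calcium release channel of taste cells, had 1.58 and 1.38. The 9 measured genes of the vomeronasal MHC class Ib list had medians of 0.05 and 0.11, of which B2m, the light chain of all class I molecules, was the highest at 1.76 and 1.22, followed by H2-M11 (0.40 and 0.23), and the 3 measured formyl peptide receptor genes had 0.13 and -0.12, with Fpr-rs6 (0.16 and 0.69) and Fpr2 (0.13 and -0.12) the highest. The 13 olfactory signalling genes had 0.44 and 0.42, led by Gnal, the olfactory G protein subunit (2.70 and 2.04), and Ric8b, its exchange factor (1.24 in both genotypes).

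The transcription factors of chemosensory cells stood far above the receptor genes. Of 19 measured, 17 were bound in wild type and 18 in Phc2 L307R, against 45.5% and 39.3% of all promoters. The medians of the 19 were 3.19 and 2.73. Sox2, a factor of neural and taste progenitors, stood at 5.89 and 6.49. Tfap2e, a factor in the identity of V2r neurons, was the only 1 of the 19 called lower, against 1.63% of all promoters. Its window went from 3.30 to 1.70 (difference -1.60). Among 12 fibroblast genes 10 were bound in wild type and 11 in Phc2 L307R (Pdgfra 3.03 and 3.11, Vim 2.95 and 2.67), against the same 45.5% and 39.3% of all promoters. These arrays measure DNA bound by Ring1B and not RNA, so the cell type could not be checked from the expression of its markers.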

How the data were processed

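The authors deposited scanner files with the intensity of each spot in 2 colours, quantified with Agilent Feature Extraction 10.7.3.1, per the file headers. Per the file headers, the spots also have a log10 ratio, Cy5 over Cy3. Compared with those ratios, the deposited value tables hold log10 ratios as well; how their wild-type columns were made is not known. In wild type their medians were -0.056 (design 1) and -0.0615 (design 2), and in Phc2 L307R -0.0342 and -0.0393. The genome build was not given in the sources used here.

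Of 474380 probes, 474198 without outlier flags were used. Ratios were put on the log2 scale, with the median of each array at 0. The highest window of 3 probes within 2000 bp was taken, and 17649 promoters had such a window. The bound cut-off of 1 and the size rule of 1 (log2) were applied to all of them. The steps were tested on simulated data. The members and lists were chosen with earlier results of these data known. Named genes were all Tas1r and Taar genes, the 3 highest and the lowest wild-type windows of V1r, V2r and Tas2r, all called or bound receptor promoters, the 5 largest differences each way, and up to 2 genes with the highest wild-type window per list. A single transcription factor that this rule names is not reported here. The alternatives were normexp (offset 50), loess, arrays scaled to the same spread, the value tables, a dim-probe filter, other windows and cut-offs, and single designs. A further setting counted each distinct window once, which removed no promoter. Python 3.11.15 with pandas 2.3.3, numpy 2.4.6, scipy 1.17.1 and matplotlib 3.10.9, and R 4.3.3 with limma 3.58.1, were used.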

Additional observations from a re-analysis of the deposited data

How the results depend on the processing

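No paired analysis was possible because the titles number the array designs, which have 0 probes in common, and each promoter has 1 array per genotype; for the same reason no array could be left out. The all-probe settings were added after seeing the data. Of the values that describe families and counts, 134 under an alternative stayed within 0.1 (log2) or 1.5 times of the reported value, 64 moved further and 3 changed sign; of those of single genes 288 stayed, 50 moved, 40 lost a call, 2 gained a call and 4 changed sign. The setting that counted each distinct window once removed no promoter, so its values in these counts stayed by construction. The Taar values on design 2 alone also did, since all 15 Taar promoters lie on that design. The cause of the changes was not tested. The number of receptor promoters with a higher mean over all probes in Phc2 L307R (139) lay between 134 and 141, that of V1r promoters (101) between 95 and 101, and the median of this difference (0.22) between 0.13 and 0.23, under normexp, loess, the same spread, the value tables and the dim-probe filter, the median also on each design alone.

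The median window difference of all promoters, -0.05 as reported, was -0.13 with normexp, -0.12 with the same spread, -0.24 where windows were chosen in wild type and 0.15 where they were chosen in Phc2 L307R. Of all promoters 0.068% were called higher with normexp, 0.997% with loess, 0.442% with the value tables and 0.195% with only probes well above background. The shares bound in wild type and Phc2 L307R were 22.9% and 12.8% with normexp. With only probes well above background they were 36% and 27%. With normexp, the medians in Phc2 L307R were 0.33 for all receptor promoters, 0.33 for V1r and 0.36 for Tas2r, the median differences were 0.15, 0.16 and 0.15, Taar stood at 0.45 in wild type with a difference of -0.0028, and 1 promoter was bound in wild type, 0 in Phc2 L307R and 0 were higher; V1ri6 had a difference of -0.51. With loess, Tas2r had 0.25 in wild type and a difference of 0.18, and 2 promoters were higher. With the value tables, wild-type medians were 0.26 for all receptor promoters, 0.24 for V1r and 0.35 for Tas2r, the differences of the first and second were 0.18 and 0.23, and 2 promoters were higher. With only probes well above background, Tas2r had 0.32 in Phc2 L307R and a difference of 0.19, 1 promoter was bound in wild type, 0 in Phc2 L307R and 0 were higher, and V1ri6 had -0.14.

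With windows of 5 probes, all receptor promoters had 0.03 in wild type and 0.31 in Phc2 L307R, V1r 0.29, Tas2r 0.40 and Taar 0.20 in Phc2 L307R, 1 promoter was bound in wild type, 0 in Phc2 L307R and 0 were higher, and V1rc13 had a difference of -0.02. For windows chosen in wild type alone, which raises the wild-type side, the differences were 0.05 for all receptor promoters, 0.12 for V1r, -0.05 for Tas2r and -0.15 for Taar. The Phc2 L307R medians were then 0.26, 0.30, 0.23 and 0.12, Tas2r had 0.28 in wild type, 1 promoter was bound in Phc2 L307R, 2 were higher, and V1ri6 had -0.19. Of all promoters 33.7% were then bound in Phc2 L307R and 0.193% were higher. With windows of 5 probes, 35.9% of all promoters were bound in wild type, 29.2% in Phc2 L307R and 0.326% were higher. For windows chosen in Phc2 L307R alone, which raises the other side, the differences were 0.55, 0.61, 0.53 and 0.21, the wild-type medians were -0.03 for all receptor promoters and -0.08 for V1r, and 1 promoter was bound in wild type, where 39.3% of all promoters were.

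By the mean over all probes, medians in wild type and Phc2 L307R were -0.15 and 0.07 for all receptor promoters, -0.18 and 0.08 for V1r, -0.11 and 0.09 for Tas2r and 0.0039 and -0.06 for Taar, with 0 bound in wild type, 0 in Phc2 L307R and 0 higher. Of all promoters 4.73% and 3.99% were bound by this measure and 0.0113% were higher. A bound cut-off of 1.5 left 0 bound in wild type and 0 in Phc2 L307R, where 22% and 18.6% of all promoters were. With the size rule at 1.5-fold, 35 promoters were higher and 3 lower, against 6.33% and 8.44% of all promoters. Among bound promoters alone, 3 were higher by the 2-fold rule.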
